A study of Mus musculus with 8 samples.

Results

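The genes described here were 10 genes of the microtubule cytoskeleton, namely the stathmin genes Stmn1, Stmn2, Stmn3 and Stmn4, the β-tubulin genes Tubb3, Tubb2a, Tubb2b and Tubb6, and the genes Mapt and Dcx. They were found by gene symbol, and all 10 were among the 23284 genes of the count files. All 10 were also among the 13358 genes that passed a filter on low counts, although Stmn4 passed it only through the control libraries. The genes were chosen by name with the read counts of this same comparison known, among them the low Stmn4 counts in the knockout and the high ones in a single control, so their differences between the groups are given as a description. Their calls in the fit over all genes are counted further on, with no p-value and with nothing read from them.

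Microtubules are hollow polymers of α- and β-tubulin that grow and shrink at their ends. Stathmins bind free tubulin and promote the shrinking of microtubules, whereas the products of Mapt (tau) and Dcx (doublecortin) bind the microtubule wall and stabilise it. Stmn1 is common in dividing cells, Stmn2, Stmn3 and Stmn4 are known mainly from neurons, Tubb3 is the neuron-enriched β-tubulin used as a neuronal marker, and Dcx marks immature, migrating neurons. Neuroendocrine cells of the lung express many genes that are otherwise neuronal.

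RNA was sequenced from preSC, cultured mouse lung cells of neuroendocrine character, derived from animals of mixed 129/SvJ and C57BL/6 background with the alleles Chga-GFP, Rblox/lox, p53lox/lox and p130lox, which both groups share. There were 4 MaxKO libraries, from cells given a guide RNA that targets Max, and 4 Ctrl libraries, from cells given a control guide. All populations were polyclonal (not grown from single cells), were selected with puromycin and had no further treatment, so a MaxKO population can hold unedited cells. MAX is the DNA-binding partner of the MYC proteins and of the MNT, MGA and MXD repressors. Whether the 4 libraries within a group represent separate cultures is not stated, so all p-values here reflect library-to-library spread only, and that spread may be technical.

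The libraries held 14952291 to 19480947 counted reads in MaxKO and 13711278 to 19804949 in Ctrl, so 1 read corresponded to 0.0505 to 0.0729 CPM (read counts scaled to a common library total). Max itself was measured at 42.3, 42.3, 59.1 and 68.0 CPM in MaxKO libraries 1 to 4 and at 65.5, 70.2, 75.2 and 61.9 CPM in Ctrl libraries 1 to 4. The difference of -0.37 on the log2 scale did not pass the threshold (edgeR adjusted p = 0.0955). Over the fits that left out 1 library it ran from -0.52 (without MaxKO library 4, edgeR adjusted p = 0.0228) to -0.27, with adjusted p up to 0.25. The neuroendocrine marker Chga, chosen after its values were seen, lay at 398 to 478 CPM in MaxKO and 446 to 466 CPM in Ctrl. The MaxKO libraries resembled each other more than the Ctrl libraries did, with Pearson correlations of log2 CPM across genes of 0.993 to 0.995 among MaxKO and 0.973 to 0.995 among Ctrl. Controls 1 and 2 were the closest Ctrl pair (0.995). The share of reads outside exons was 20.5% to 21.5% in MaxKO, 18.5% and 18.6% in controls 1 and 2, and 23.3% and 23.4% in controls 3 and 4. Because these control pairs stand apart, each result that rests on 1 control is given with and without it.

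Most markers of other cell types were low, apart from Dcn (means of 55.5 CPM in MaxKO and 32.3 CPM in Ctrl) and Mbp (186 CPM in MaxKO and 151 CPM in Ctrl). The summed level of 8 haematopoietic genes was 2.36 to 4.35 CPM in MaxKO and 2.68 to 5.98 CPM in Ctrl, and that of 6 endothelial genes, of which Emcn was at 0 in every library, was 0.924 to 1.20 CPM in MaxKO and 1.04 to 2.33 CPM in Ctrl. For 8 fibroblast genes, with Lum at 0 in every library, the sum was 49.9 to 65.8 CPM in MaxKO and 33.7 to 49.1 CPM in Ctrl. For 9 genes of other lung epithelium, with Krt5 at 0, it was 10.9 to 12.5 CPM in MaxKO and 10.4 to 14.0 CPM in Ctrl. For 7 glial genes, with Gfap and Olig2 at 0, it was 192 to 213 CPM in MaxKO and 156 to 200 CPM in Ctrl. For 11 neuroendocrine genes it was 4630 to 4880 CPM in MaxKO and 4910 to 6160 CPM in Ctrl, where control 3 was the lowest control. Within this sum, Calca was at 517 to 581 CPM in MaxKO and at 1990, 1800, 397 and 483 CPM in controls 1 to 4. Calca alone thus spread more among the controls than the whole sum did, and the rank of control 3 rests on this gene. Of 11 tested neuroendocrine genes, Uchl1 rose and Chgb, Scg2 and Resp18 fell, and of 3 tested fibroblast genes, Dcn rose and Fbln1 and Pdgfra fell. The groups overlapped for Uchl1 (edgeR adjusted p = 0.0496), with control 3 at 748 CPM against 687 to 833 CPM in MaxKO. They also overlapped for Resp18 (edgeR adjusted p = 0.0463), with controls 3 and 4 at 119 and 112 CPM against 96.7 to 114 CPM in MaxKO. Pdgfra was at 0.0522 to 0.339 CPM in MaxKO and 0.785 to 2.27 CPM in Ctrl, so it passed the filter on low counts only through its controls, as Stmn4 did. Hopx rose among 4 tested genes of other lung epithelium, with overlapping groups (edgeR adjusted p = 0.0458), and Mbp rose among 3 tested glial genes. The 1 tested haematopoietic and the 1 tested endothelial gene did not pass the threshold. The part of other cell types in the results below was not tested.

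The levels of the 10 genes spanned a wide range. Per kilobase of exon, Stmn1 was by far the highest, at 1576 ± 103 CPM per kilobase in MaxKO and 1413 ± 166 in Ctrl (SD, n = 4 each). Stmn3 followed at 165 ± 12.1 in MaxKO and 210 ± 35.3 in Ctrl. Tubb6 was at 92.8 ± 3.71 in MaxKO and 69.3 ± 1.39 in Ctrl, and Tubb3 at 65.6 ± 2.08 in MaxKO and 61.2 ± 18.6 in Ctrl, so that these neighbours in the order were apart in MaxKO and overlapped in Ctrl. Tubb2a (10.8 in MaxKO and 11.1 in Ctrl), Mapt (7.45 in MaxKO and 8.65 in Ctrl) and Tubb2b (6.32 in MaxKO and 8.17 in Ctrl) formed a middle group whose ranges overlapped in Ctrl. Stmn4, Stmn2 and Dcx were near the limit of detection in MaxKO, at 0.154, 0.124 and 0.0951 CPM per kilobase, and their order there is not firm. The lengths are those of all annotated exons of a gene in the GENCODE annotation of GRCm38, a later build than the mm9 used for counting, so the levels per length are approximate, most of all for Dcx and Mapt with their long or variable transcripts.

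**Figure D1:**
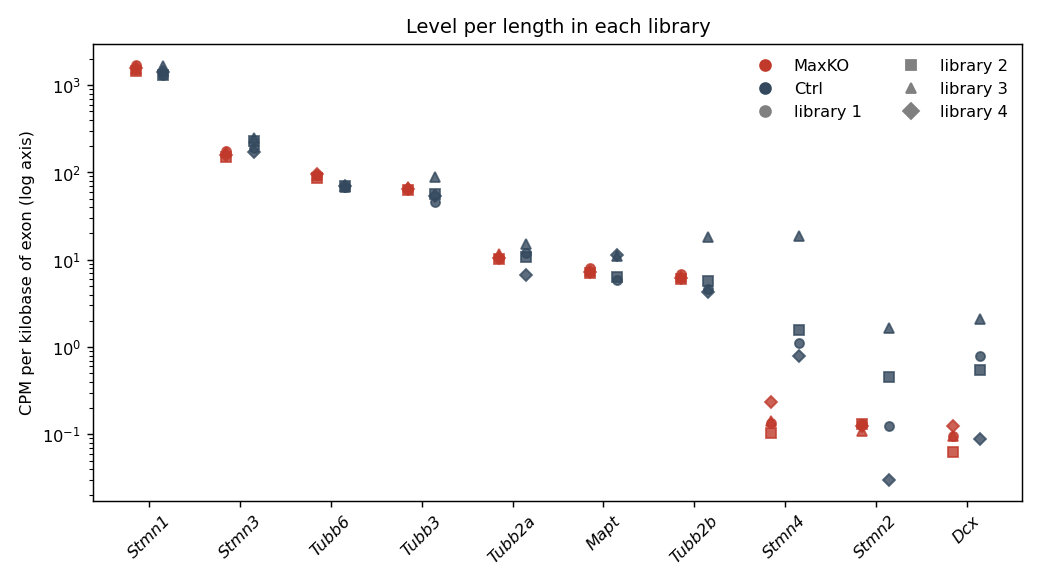
Level per length (CPM per kilobase of exon, log axis) of each gene in the 4 MaxKO libraries (red, left of each pair) and the 4 Ctrl libraries (dark, right), with the library number as the marker shape. Stmn1 lies above all other genes in every library, and Stmn4, Stmn2 and Dcx lie below 0.3 in every MaxKO library and spread widely among the Ctrl libraries.

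Among the stathmins, Stmn1 supplied nearly all of the RNA, at 89.9% to 90.9% of the summed level per length in MaxKO and 84.8% to 89.1% in Ctrl. Stmn1 was measured at 3297, 2823, 2983 and 3015 CPM in MaxKO libraries 1 to 4 and at 2510, 2485, 3173 and 2699 CPM in Ctrl libraries 1 to 4. All MaxKO values lay above controls 1, 2 and 4, but control 3 lay within the MaxKO range. The difference was 0.16 on the log2 scale (SE 0.10), 0.24 without control 3 and 0.04 against controls 3 and 4 alone. Some reads of Stmn1 may be shared with other genes, because 36.5% of the 50-base windows of its transcript occur in transcripts of other genes, mostly of the pseudogene Gm11223, whereas none of those of Stmn2, Stmn3 or Stmn4 do.

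Stmn3 was the next most abundant stathmin and was lower in MaxKO. It was measured at 200, 172, 197 and 178 CPM in MaxKO and at 217, 262, 281 and 194 CPM in Ctrl. Controls 1, 2 and 3 lay above every MaxKO library, and control 4 lay within the MaxKO range. The means were 187 ± 13.7 CPM in MaxKO and 238 ± 40.2 CPM in Ctrl (SD, n = 4 each), a log2 fold change of -0.35 (SE 0.11). The log2 fold change was -0.26 without control 3 and -0.44 without control 4, and it was -0.36 against controls 1 and 2 and -0.35 against controls 3 and 4.

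Stmn4 had the largest difference of the 10 genes. It was measured at 0.261, 0.199, 0.271 and 0.447 CPM in MaxKO, which corresponded to 5, 3, 4 and 7 reads, and at 2.11, 3.01, 36.2 and 1.51 CPM in Ctrl, or 42, 50, 495 and 27 reads. Every Ctrl library lay above every MaxKO library. The lowest, control 4, was 5.15 times the MaxKO mean, and control 3 was 123 times it. Control 3 held 16.4 times the mean of the other 3 controls, so the fitted log2 fold change of -5.12 (SE 1.43) became -2.87 without this library. It was -3.08 when the comparison used controls 1 and 2 alone and -5.95 when it used controls 3 and 4 alone. A single read corresponds to 0.0513 to 0.0669 CPM in the MaxKO libraries, and a level of 3 reads to 0.154 to 0.201 CPM, so the MaxKO values of Stmn4 rest on few reads. In bulk RNA, fewer cells that express a gene and less of its RNA per cell cannot be told apart.

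Stmn2, the stathmin best known for axon growth, was also sparse in MaxKO, and its highest control was 54.8 times its lowest. It was measured at 0.731, 0.730, 0.610 and 0.702 CPM in MaxKO (9 to 14 reads) and at 0.705, 2.53, 9.22 and 0.168 CPM in Ctrl (14, 42, 126 and 3 reads). Controls 2 and 3 lay above the MaxKO range, control 1 lay within it and control 4 lay below it. The log2 fold change of -2.12 (SE 0.93) was -0.66 without control 3, so its size rests on that library.

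**Figure D2:**
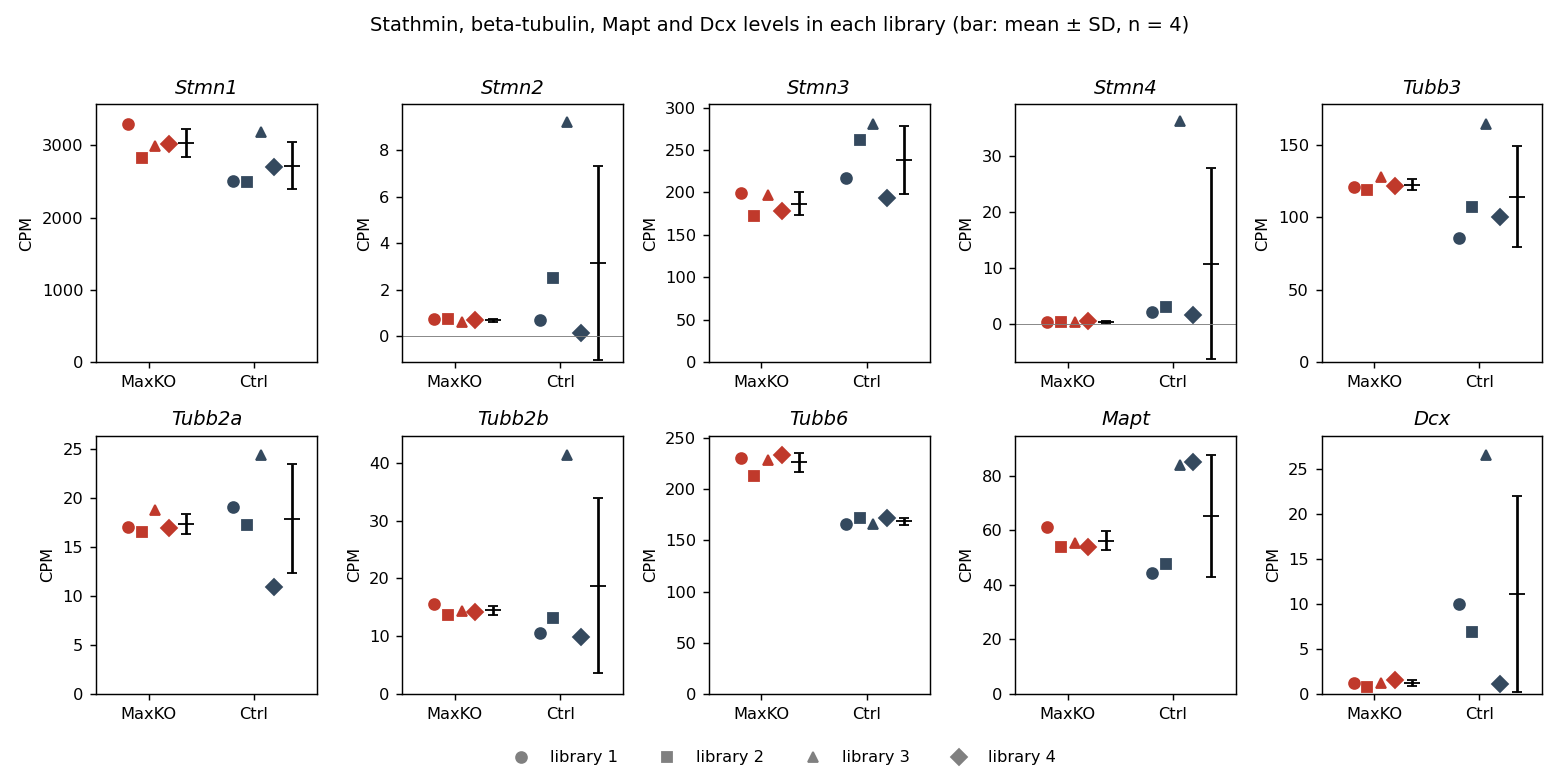
Level (CPM, axis of each panel including 0) of each gene in MaxKO libraries 1 to 4 (red, left) and Ctrl libraries 1 to 4 (dark, right), with the mean ± SD of each group (n = 4) as a black bar to the right of its points. Control 3 (triangle) is the highest of the 8 libraries for Stmn2, Stmn3, Stmn4, Tubb3, Tubb2a, Tubb2b and Dcx, and Tubb6 separates the groups with every MaxKO library above every Ctrl library. The bars of Stmn2 and Stmn4 in Ctrl reach below 0 because the SD exceeds the mean.

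The β-tubulin genes encode isotypes that differ mostly in the tail at the end of the protein, the part that binds many motor proteins and associated proteins. Tubb2a and Tubb2b lie next to each other in the genome and share 96.5% of their coding bases, against 83.2% to 85.7% for the other pairs among the 4 β-tubulin members. The last 75 coding bases of 3 of them, from the GENCODE transcripts of GRCm38 and ending in the stop codon, are shown because they carry the tail and show how little separates the counts of Tubb2a from those of Tubb2b. Capitals mark bases that differ from Tubb2b in a global alignment of the coding sequences or have no partner there.
Tubb2a: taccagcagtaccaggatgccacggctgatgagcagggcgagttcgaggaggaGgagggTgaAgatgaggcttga
Tubb2b: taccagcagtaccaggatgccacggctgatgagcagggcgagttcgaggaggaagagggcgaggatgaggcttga
Tubb3: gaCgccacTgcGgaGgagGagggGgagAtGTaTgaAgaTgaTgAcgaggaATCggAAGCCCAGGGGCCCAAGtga
Tubb2a differed from Tubb2b at 3 of these bases and Tubb3 at 34. Over the whole transcript, 49.6% of the 50-base windows of Tubb2a and 39.3% of those of Tubb2b occurred in transcripts of other genes, mostly in each other, whereas none of those of Tubb3 or Tubb6 did. The files list reads that aligned to several places in a row of their own, outside the gene counts, so the levels of Tubb2a and Tubb2b are uncertain, and the difference between them rests on the bases that are not shared.

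Tubb6, a β-tubulin found in many tissues, was the one member with a clear separation and little spread in both groups. It was measured at 230, 213, 228 and 233 CPM in MaxKO and at 166, 172, 166 and 171 CPM in Ctrl. Every MaxKO library lay above every Ctrl library, and the controls differed among themselves by 1.04-fold at most. The means were 226 ± 9.05 CPM in MaxKO and 169 ± 3.38 CPM in Ctrl (SD, n = 4 each), a log2 fold change of 0.42 (SE 0.06). With any single library removed this value ranged over 0.40 to 0.45, and it was 0.42 with either pair of controls.

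Tubb3 was measured at 121, 119, 128 and 122 CPM in MaxKO and at 85.8, 107, 165 and 99.9 CPM in Ctrl. The MaxKO libraries were close together, with a coefficient of variation of 3.17%, and lay above controls 1, 2 and 4 and below control 3. The log2 fold change was 0.10 (SE 0.16) with all controls and 0.33 without control 3, and it was -0.11 against controls 3 and 4 alone. Thus the direction of the Tubb3 difference depended on which controls were kept.

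Tubb2b showed the same arrangement, with 15.6, 13.7, 14.4 and 14.2 CPM in MaxKO and 10.6, 13.1, 41.4 and 9.93 CPM in Ctrl. All 4 MaxKO libraries lay above controls 1, 2 and 4, and control 3 held 2.85 times the MaxKO mean. The log2 fold change was -0.35 (SE 0.42) with all controls and 0.38 without control 3. Tubb2a was measured at 17.1, 16.5, 18.8 and 17.0 CPM in MaxKO and at 19.1, 17.2, 24.4 and 10.9 CPM in Ctrl. The MaxKO values lay inside the Ctrl range, with controls 1 and 3 above all of them and control 4 below all of them. Its log2 fold change was -0.04 (SE 0.19) and 0.14 without control 3.

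Taking the 4 β-tubulin members by length, Tubb6 made up 52.0% to 53.9% of their sum in MaxKO and 36.0% to 52.2% in Ctrl, with the lowest share in control 3. Tubb2b made up 3.49% to 3.85% in MaxKO and 3.21% to 9.52% in Ctrl, with the highest share in control 3. In the other controls Tubb6 made up 49.0% to 52.2%, so the mixture of these 4 genes in control 3 stood apart from that of the other 7 libraries. The 4 genes are a small part of all β-tubulin RNA. They summed to 281 to 396 CPM over the libraries, against 2294 to 3423 CPM for the 7 tested β-tubulin genes.

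Of the genes for proteins that bind the microtubule wall, Mapt followed a different division of the controls. It was measured at 61.2, 53.8, 55.4 and 54.0 CPM in MaxKO and at 44.2, 47.5, 84.0 and 85.1 CPM in Ctrl. Controls 3 and 4 lay above all MaxKO libraries and controls 1 and 2 lay below all of them. The log2 fold change was therefore -0.21 (SE 0.20) with all controls, 0.29 with only controls 1 and 2 and -0.60 with only controls 3 and 4, that is, in opposite directions. Among the members, Stmn1 too had controls 3 and 4 both above controls 1 and 2, as did 27.6% of all tested genes. Controls 3 and 4 are also the pair with the higher share of reads outside exons, and the part of that share in the Mapt values was not tested.

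Dcx was measured at 1.20, 0.796, 1.22 and 1.6 CPM in MaxKO (12 to 25 reads) and at 10.02, 6.86, 26.6 and 1.12 CPM in Ctrl (199, 114, 363 and 20 reads). Controls 1, 2 and 3 lay 5.70 to 22.1 times above the MaxKO mean, and control 4 lay within the MaxKO range. The means were 1.20 ± 0.326 CPM in MaxKO and 11.1 ± 10.9 CPM in Ctrl (SD, n = 4 each), with a log2 fold change of -3.18 (SE 0.79). Without control 3 it was -2.31, and with either pair of controls it was -2.81 (controls 1 and 2) and -3.49 (controls 3 and 4).

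**Figure D3:**
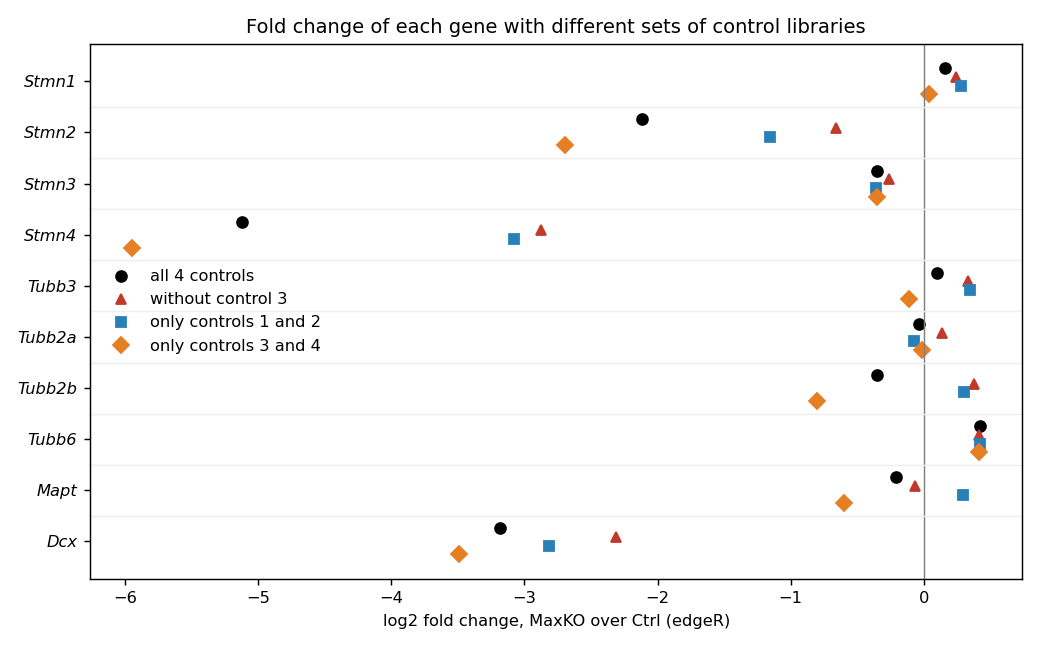
Log2 fold change (MaxKO over Ctrl, edgeR) of each gene, fitted with all 4 controls (black circles), without control 3 (red triangles), with only controls 1 and 2 (blue squares) and with only controls 3 and 4 (orange diamonds). Stmn3, Stmn4, Stmn2 and Dcx stay below 0 and Tubb6 and Stmn1 above 0 in all of these fits, whereas Tubb3, Tubb2a, Tubb2b and Mapt lie on either side of 0.

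In the fit over all genes, 3 of the 10 genes were called lower in MaxKO (Stmn3, Stmn4 and Dcx) and 1 was called higher (Tubb6), at an adjusted p under 0.05, where 23.1% of all tested genes were called. The median log2 fold change of the 10 was -0.28, and 7 of them were below 0, beside a median of -0.0036 over all tested genes. The values of the 2 groups did not overlap for Stmn4 and Tubb6, that is 2 of 10, where 26.4% of all tested genes did not overlap (13.1% lower and 13.4% higher in MaxKO). Without control 3, the groups did not overlap for 5 of the 10 (Stmn1, Stmn4, Tubb3, Tubb2b and Tubb6), where 34.4% of all tested genes did not overlap. Because the list was drawn up from this comparison, neither these counts nor those that follow are support for a difference. Without control 3, 6 of the 10 were called (Stmn1, Tubb3, Tubb2b and Tubb6 higher, Stmn4 and Dcx lower), where 27.5% of all genes were called. Against controls 1 and 2 alone, every member but Tubb2a was called, 5 higher and 4 lower, where 44.6% of all genes were called. Against controls 3 and 4 alone, Tubb6 and Mapt were called, where 20.7% of all genes were.

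The calls of the members in the other fits are given only to show how they varied, beside the share of all genes called in the same fit. Without MaxKO library 1 or 3, Tubb6 and Dcx were called (16.5% and 16.6% of all genes), without MaxKO library 2 Tubb6 alone (15.5%), and without MaxKO library 4 Stmn4, Tubb6 and Dcx (19.0%). Without control 1, Stmn3 and Tubb6 were called (19.7%), without control 2 Stmn4, Tubb6 and Dcx (17.5%), and without control 4 the original 4 genes and Stmn2 (27.8%). Stmn3 and Tubb6 were called with no filter on low counts (15.4%), Tubb6 alone with limma-voom (22.9%), and Stmn3, Tubb6 and Dcx with DESeq2 (25.7%), which gave no adjusted p for Stmn4.

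The controls differed among themselves more than the MaxKO libraries did for nearly all of these genes. Of the 10 genes, 9 had a larger coefficient of variation in Ctrl than in MaxKO, where 74.4% of all tested genes did, and Tubb6 was the exception. The median coefficient of variation of the 10 genes was 6.36% in MaxKO and 32.7% in Ctrl, beside medians of 7.62% in MaxKO and 12.4% in Ctrl over all tested genes. Control 3 was the highest of the 8 libraries for 7 of the 10 genes (20.9% of all tested genes), and it held at least 2 times the level of every other library for 4 of them, Stmn2, Stmn4, Tubb2b and Dcx (0.764% of all tested genes). Control 4 was the lowest of the controls for 6 of the 10 genes (25.3% of all tested genes). In Stmn2, Stmn3, Stmn4 and Tubb2b the controls ran in the same order from high to low, 3, 2, 1 and 4, an order that 6.89% of all tested genes had. The high Stmn4 value of control 3 was known when the list was drawn up, so these shares are descriptions.

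For the genes with the largest and the steadiest differences, the 3 other genes with the most similar pattern over the 8 libraries were taken by the Pearson correlation of log2 CPM. For Stmn4 these were Rtn1, a reticulon gene of neuroendocrine cells (0.991), Nckap5l (0.989) and the noncoding gene Pvt1 (0.987), at 0.979, 0.977 and 0.961 without control 3. Pvt1 was at 1.73 to 2.04 CPM in MaxKO and at 8.0, 18, 219 and 4.77 CPM in Ctrl, with the same order of controls as Stmn4. For Dcx they were Ppid, a cyclophilin gene (0.986), Enah, which encodes an actin regulator (0.983), and the kinase gene Sgk1 (0.977). Enah was at 1.36 to 2.04 CPM in MaxKO and at 9.31, 8.42, 22.1 and 2.52 CPM in Ctrl. For Tubb6 they included the surface protein gene Igsf8 (0.995) and the aldolase gene Dera (0.993), and Igsf8 was at 237 ± 8.30 CPM in MaxKO and 162 ± 3.90 CPM in Ctrl (SD, n = 4 each). These correlations are over 8 libraries that fall into 2 groups, which all such genes share. By construction they were the highest among the tested genes other than the members and other than predicted and clone-named genes, which were left out.

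Promoter sequences of RefSeq (GRCm38.p6) ran from 250 bases before to 50 after the start of a gene. They are described for 4 of the 10 genes, Stmn3, Tubb3, Tubb2a and Dcx. Member windows on 1 chromosome were dropped after the motif search described below. No window of the other members, Tubb6 among them, is described. Those of Stmn3 and Dcx are shown because both genes were called lower in MaxKO in the fit over all genes. That of Tubb3 is shown because the gene is the neuronal tubulin and was not called in that fit. The genes were chosen from this comparison, and no link between promoter and difference was tested. The letters CACGTG, the E-box bound by MAX with its partners, the variant CACGCG and the general E-box CANNTG, of which CACGTG is a special case, were searched on both strands. Capitals mark matches to CANNTG or CACGCG.
Stmn3, chr2:181314451-181314750, minus strand: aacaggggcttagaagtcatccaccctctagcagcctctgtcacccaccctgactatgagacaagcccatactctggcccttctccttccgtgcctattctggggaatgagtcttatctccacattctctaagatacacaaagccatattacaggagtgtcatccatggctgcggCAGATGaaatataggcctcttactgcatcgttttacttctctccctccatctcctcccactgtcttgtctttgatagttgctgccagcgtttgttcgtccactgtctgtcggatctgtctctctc
Dcx, chrX:143933170-143933469, minus strand: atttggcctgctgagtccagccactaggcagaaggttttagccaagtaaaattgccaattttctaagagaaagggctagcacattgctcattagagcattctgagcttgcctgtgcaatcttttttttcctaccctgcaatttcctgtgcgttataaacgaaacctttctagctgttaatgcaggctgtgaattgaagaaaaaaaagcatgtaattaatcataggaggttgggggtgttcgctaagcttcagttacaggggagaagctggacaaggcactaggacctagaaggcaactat
Tubb3, chr8:123411303-123411602, plus strand: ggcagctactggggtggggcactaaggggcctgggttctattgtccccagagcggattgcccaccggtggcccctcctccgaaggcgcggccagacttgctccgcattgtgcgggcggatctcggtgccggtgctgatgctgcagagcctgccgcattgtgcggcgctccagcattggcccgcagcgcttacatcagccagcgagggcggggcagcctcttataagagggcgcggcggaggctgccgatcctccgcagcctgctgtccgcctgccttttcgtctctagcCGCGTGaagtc
The table holds a second, overlapping window for Dcx (chrX:143933075-143933374, 44.7% G and C), which is not shown and held no match to any of the 3 motifs. None of the windows of the 4 genes held CACGTG, which 7.15% of the 32851 promoters in the table held. Tubb3 held 1 match to CACGCG (9.27% of promoters), and Stmn3 and Tubb2a held 1 match each to CANNTG (72.3% of promoters). The promoters of Tubb3 and Tubb2a were rich in G and C (67.3% and 67.0%, with 26 and 25 CG pairs), those of Stmn3 (49.7%, 6 pairs) and Dcx (43.0%, 3 pairs) were not, and the median promoter had 52.7% and 7 pairs.

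The other genes of the microtubule system were described from 4 lists of 85 genes, of which 76 were tested. Of these, 9 rose and 12 fell (27.6%), and 55 stayed short of the threshold, where 10.9% of all tested genes rose and 12.2% fell. Their median log2 fold change was 0.07. Without MaxKO library 2, 7 rose and 7 fell.

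Of 12 other tested tubulin genes, 2 rose, 1 fell and 9 stayed short of the threshold, and 4 rose and 2 fell without control 3. The α-tubulin gene Tuba4a rose, with 117 ± 3.30 CPM in MaxKO and 70.9 ± 4.42 CPM in Ctrl (SD, n = 4 each; log2 fold change 0.72, SE 0.07, edgeR adjusted p = 4.7e-05), and every MaxKO library lay above every Ctrl library. The β-tubulin gene Tubb4b also rose, to 353 ± 31.2 CPM in MaxKO against 257 ± 9.41 CPM in Ctrl (0.45, edgeR adjusted p = 0.00179). Tubb4a, a β-tubulin best known from the brain, fell to 37.5 ± 4.41 CPM in MaxKO, against 63.7 ± 11.0 CPM in Ctrl (-0.76, SE 0.13, edgeR adjusted p = 0.00132). The γ-tubulin gene Tubg2 did not pass the threshold (0.22, edgeR adjusted p = 0.114), but did without control 3 (0.30, adjusted p = 0.0235). Tubb5, the most abundant β-tubulin gene here and chosen after its values were seen, was at 2210 to 2515 CPM in MaxKO and 1692 to 2697 CPM in Ctrl, highest in control 3, with a difference of 0.11 (edgeR adjusted p = 0.590) that was -0.12 with only controls 3 and 4. Summed over the 7 tested β-tubulin genes, the level was 3089 ± 152 CPM in MaxKO and 2782 ± 503 CPM in Ctrl (SD, n = 4 each), a difference within the spread of the controls, with control 3 highest at 3423 CPM.

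Of 28 tested genes of other microtubule-associated proteins, 3 rose (Camsap3, Mtap7 and Clip2), 9 fell and 16 stayed short of the threshold. Leaving out any 1 library gave 5 to 8 falls (5 without MaxKO library 2 or 3). Tppp3, which encodes a tubulin polymerisation-promoting protein, fell to 4.78 ± 0.300 CPM in MaxKO, against 10.4 ± 1.57 CPM in Ctrl (SD, n = 4 each; -1.11, SE 0.14, edgeR adjusted p = 0.000243). Clasp2, whose product stabilises growing microtubule ends, fell to 45.3 ± 3.53 CPM in MaxKO, against 71.5 ± 5.77 CPM in Ctrl (-0.66, edgeR adjusted p = 0.000327). Camsap3, whose product holds microtubule minus ends in epithelial cells, rose to 90.2 ± 7.04 CPM in MaxKO, against 64.8 ± 4.61 CPM in Ctrl (0.48, edgeR adjusted p = 0.00156). Mtap7, the ensconsin gene of epithelial cells, rose to 107 ± 4.91 CPM in MaxKO, against 74.99 ± 9.01 CPM in Ctrl (0.51, edgeR adjusted p = 0.00164). These 4 calls held in each fit that left out 1 library.

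Of 9 tested genes for severing and depolymerising proteins, 1 rose and 8 stayed short of the threshold. The riser was Fignl1, an AAA ATPase gene, at 75.5 ± 4.03 CPM in MaxKO and 62.2 ± 1.8 CPM in Ctrl (SD, n = 4 each; 0.28, edgeR adjusted p = 0.0126), and its call ended without MaxKO library 2 (adjusted p = 0.0513). Kif2a (0.16, adjusted p = 0.146), Katnal2 (-0.37, adjusted p = 0.164) and Spast (0.12, adjusted p = 0.287) stayed short of the edgeR threshold, although Katnal2 passed it with only controls 1 and 2 (-0.64, adjusted p = 0.00140). Of 27 tested genes for tubulin folding and modification, 3 rose (Agtpbp1, Tbce and Tbcd) and 2 fell, and 1 fell without MaxKO library 2 or 4 or control 2. Without any 1 MaxKO library, or without control 1 or 2, 2 rose, and 4 rose without control 3 or 4. In the fits with 2 rises these were Agtpbp1 and Tbce, and Tbcd (edgeR adjusted p = 0.0476 in the reported fit) was not called. Agtpbp1, which trims glutamates from tubulin tails, rose (0.39, edgeR adjusted p = 0.00902), as did the tubulin-folding cofactor gene Tbce (0.33, adjusted p = 0.00992; 0.0635 against controls 3 and 4 alone). Vash1, which encodes a tubulin detyrosinating enzyme, fell to 48.6 ± 2.72 CPM in MaxKO, against 69.8 ± 12.5 CPM in Ctrl (SD, n = 4 each; -0.52, edgeR adjusted p = 0.00624). Ccdc23, which encodes its small binding partner, fell as well (-0.53, edgeR adjusted p = 0.0302), a call that ended without MaxKO library 2 or 4 or control 2 (adjusted p up to 0.0981) and against controls 3 and 4 alone (adjusted p = 0.11).

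**Figure D4:**
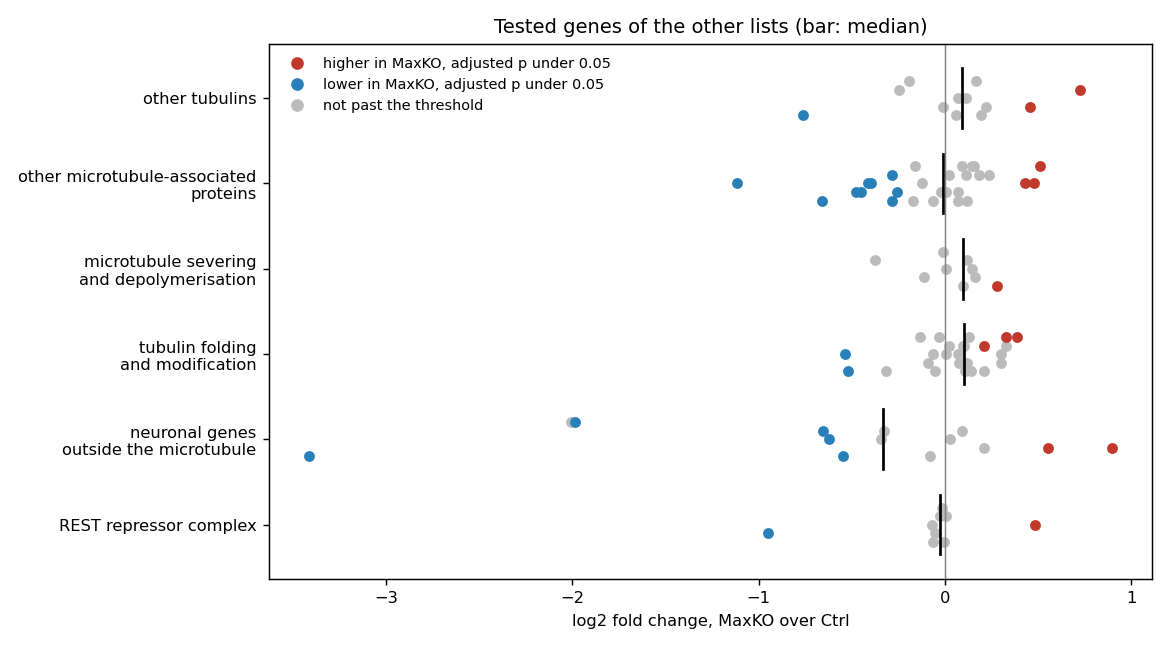
Log2 fold change (MaxKO over Ctrl) of the tested genes of the 4 microtubule lists, of neuronal genes outside the microtubule and of the REST repressor complex, with 1 point per gene, coloured by its call, and a black bar at the list's median. Calls in both directions appear in each list except that of severing and depolymerising proteins, which has 1 rise, and the list medians lie between -0.33 for the neuronal genes and 0.10 for tubulin folding and modification.

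Of 14 tested neuronal genes outside the microtubule, 5 fell (Elavl3, Elavl4, Nsg2, Ina and Rbfox3), 2 rose (Snap25 and L1cam) and 7 stayed short of the threshold. The list median was -0.33, and 3 fell without MaxKO library 2, 3 or 4. The RNA-binding protein gene Elavl4 fell to 151 ± 5.94 CPM in MaxKO, against 238 ± 28.5 CPM in Ctrl (SD, n = 4 each; -0.66, SE 0.09, edgeR adjusted p = 0.000363). The endosomal protein gene Nsg2 fell to 2.35 ± 0.332 CPM in MaxKO, against 9.41 ± 4.40 CPM in Ctrl (-1.99, edgeR adjusted p = 0.000673), and the neurofilament gene Ina fell by 0.55 on the log2 scale (edgeR adjusted p = 0.000910). Snap25, which encodes a protein of vesicle fusion, rose to 212 ± 6.21 CPM in MaxKO, against 145 ± 24.7 CPM in Ctrl (0.55, edgeR adjusted p = 0.00334). Control 3 was the highest of the 8 libraries for 9 of the 14 genes (64.3%), beside 16 of the 76 other microtubule genes (21.1%), 2 of 11 neuroendocrine genes (18.2%) and 20.9% of all tested genes. Its level was at least 2 times that of every other library for Rbfox3 and Gap43, chosen after their values were seen, as for the 4 members above. Rbfox3, the gene of the neuronal marker NeuN, was at 0.133 to 0.610 CPM in MaxKO and at 0.705, 2.17, 13.2 and 0.673 CPM in Ctrl, and Gap43, which encodes a growth cone protein, was at 0.893 to 1.15 CPM in MaxKO and at 0.654, 1.20, 14.5 and 0.785 CPM in Ctrl. Rbfox3 passed the filter on low counts through its controls, as Stmn4 did, and its log2 fold change of -3.41 (edgeR adjusted p = 0.0462) was -1.62 without control 3. Its call ended without any 1 of the MaxKO libraries or without control 2 (adjusted p up to 0.12), with no filter (adjusted p = 0.143), with limma-voom (adjusted p = 0.131) and against controls 3 and 4 alone (adjusted p = 0.0668). Gap43 was not called (-2.01, edgeR adjusted p = 0.180), and its difference was 0.23 without control 3. In control 3, Rbfox3 and Gap43 were thus high along with Stmn4, Stmn2, Dcx and Tubb2b. This rests on 1 library and on genes chosen with values of control 3 known, so it is a description. The part of these neuronal transcripts in the results was not tested. The summed level of the 16 listed neuronal genes was 1460 to 1650 CPM in MaxKO and 1530 to 2250 CPM in Ctrl, highest in control 3.

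REST is the repressor that holds neuronal genes, Stmn2 among them, silent outside neurons. Rest itself was below the count filter, at 0 to 0.127 CPM in MaxKO and 0 to 0.404 CPM in Ctrl. Of 9 tested genes of its complex, 1 rose, 1 fell and 7 stayed short of the threshold. The corepressor gene Rcor2 fell to 23.8 ± 1.94 CPM in MaxKO, against 46.0 ± 12.5 CPM in Ctrl (SD, n = 4 each; -0.95, SE 0.16, edgeR adjusted p = 0.00140), with its highest level in control 3, and Rcor3 rose (0.49, edgeR adjusted p = 0.0138), a call that ended without MaxKO library 2 (adjusted p = 0.0536). The deacetylase genes Hdac1 (-0.06, adjusted p = 0.635) and Hdac2 (-0.07, adjusted p = 0.619) were not called by edgeR.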

How the data were processed

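RNA of 4 MaxKO and 4 Ctrl libraries was sequenced. Per the labels' protocols, extraction used TRIZOL, and 500 ng of RNA per library entered an NEB Ultra kit. The deposited files hold raw read counts per gene symbol, made by the authors with, per the submitters' processing notes, bcl2fastq 1.8.4, TopHat2 2.0.12, HTSeq 0.6.1 and the mm9 build. Annotation and strand setting are not stated in these sources, so overlapping genes may share reads. HTSeq's summary rows, which held 27.0% to 33.1% of all counts in a library, were left out.

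Genes were kept with filterByExpr, scaled with TMM factors and compared in R 4.3.3 with edgeR 4.0.16 (quasi-likelihood F test, robust estimation, group as the only term, Benjamini-Hochberg adjustment over all 13358 tested genes, threshold 0.05). The absolute log2 fold change over the root of F gave each standard error. CPM values use TMM factors, except for summed lists, Rest and the 3-count limits, which use library totals and cover counting error only. Correlations used log2 CPM with a prior count of 2. Lengths and shared 50-base windows come from GENCODE M21 (GRCm38), and neighbouring genes and promoters from RefSeq.

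The members and lists were chosen with earlier results of these data known. Named genes are the 10 members, up to 4 genes with the smallest p of each list, and the 3 most similar genes of a member, while Rbfox3, Gap43, Elavl3, L1cam, Tubb5, Chga, Clip2, Tbcd and the marker genes named were added after their values were seen. Alternatives were: upper-quartile or RLE scaling, no filter, at least 1 CPM in 4 libraries, DESeq2 1.42.0, limma-voom (limma 3.58.1), no robust estimation, a replicate term, leaving out each library, and either pair of controls. Some genes are not reported here. The procedure was tested on simulated counts.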

Additional observations from a re-analysis of the deposited data

Results flagged for a closer look

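Over 48 genes with 96 groups of 4 libraries, 8 groups held 1 library far from the other 3, by the gap to its neighbour as a share of the range, where chance gives about 1 in 20. In 6 of them control 3 was the highest Ctrl library, with 36.2 CPM of Stmn4, 41.4 CPM of Tubb2b, 58.1 CPM of Rtn1, 219 CPM of Pvt1, 13.2 CPM of Rbfox3 and 14.5 CPM of Gap43. Of the MaxKO libraries, library 1 was low for Clasp2 with 40.1 CPM (46.3 to 47.5 CPM in the others), and library 4 was high for Tubb4b with 399 CPM (332 to 343 CPM in the others). Rtn1, Pvt1, Rbfox3 and Gap43 were chosen by their likeness to a member or after their values were seen. The high Stmn4 value of control 3 was known when the list of members was drawn up, and Tubb2b is on that list. The counts are therefore not independent of the choice, and the chance rate is no test of them.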

How the results depend on the processing

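With only controls 1 and 2 kept, 2987 genes were higher and 3081 lower in MaxKO, 9 of the 10 members were called and 24 other microtubule genes were higher and 17 lower. The members called were 2 without the count filter, 1 with limma-voom and 2 with only controls 3 and 4 kept, against 4 in the reported fit. When each library was left out in turn, 963 to 1846 genes were higher and 1139 to 1929 lower, 1 to 6 members were called, and 7 to 12 other microtubule genes were higher and 7 to 11 lower. The lowest counts came without MaxKO library 2. The replicate numbers did not pair the libraries (correlations of deviations between -0.2 and 0.00198), and a fit with the replicate block gave 1208 genes higher and 1324 lower, 4 members called, and 8 other microtubule genes higher and 9 lower. Changes of sign occurred for Gap43 (-2.39 to 0.23 over the fits with 1 library left out, highest without control 3, and 0.16 with only controls 1 and 2), Chga (-0.092 to 0.0022, highest without MaxKO library 2) and Tubb5 (-0.12 with only controls 3 and 4). Under upper-quartile scaling the median log2 fold change over all genes was -0.05, with 1160 genes higher and 1965 lower (1457 and 1627 in the reported fit). This scaling changed no direction among the members. Of the members, Tubb2a changed sign with limma-voom (0.03), the replicate block (0.0018) and without control 3 (0.14). Tubb3 changed sign with only controls 3 and 4 (-0.11) and without control 1 (-0.02). Tubb2b did so without control 3 (0.38) and with only controls 1 and 2 (0.30), and Mapt with only controls 1 and 2 (0.29). DESeq2 gave no adjusted p for Stmn4, and Stmn2 was not tested with at least 1 CPM in 4 libraries. The cause of these changes was not tested. At this depth, Stmn4 and Stmn2 in MaxKO and Stmn2 in control 4 rest on 3 to 14 reads, so differences among those libraries were not detectable.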
